A study of Mus musculus with 8 samples.

Results

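The genes described here are the pluripotency network of the mouse, a list of 41 genes that are active in naive embryonic stem cells or act in the signals that maintain them. The list holds transcription factors, a corepressor and RNA-binding proteins, secreted ligands, the receptor of leukemia inhibitory factor (LIF), germ line genes and surface proteins, and it leaves out the reprogramming factors themselves. Members were found by their symbol in the platform annotation. A total of 40 of the 41 had at least 1 probe set naming that gene alone, among 18193 genes in all, and Tdh was not analysed here. For the 22 members with several probe sets, the one with the highest mean over the 8 arrays was used, with no filter on level, so that silent genes have values too.

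The measurements are from mouse cells of C57BL/6 background in an OSKM secondary reprogramming system, in which doxycycline switches on the factors Oct4, Sox2, Klf4 and c-Myc. The groups were CSA at day 6, DMSO at day 6, CSA at day 3 and DMSO at day 3, with 2 independent biological repeats each. The labels write the CSA dose as 10 mM and the doxycycline as 2 mg/ml, and whether these units are the ones meant was not settled here. All groups shared both doxycycline and a medium with 15% serum and LIF at 100 units/ml. CSA is the usual abbreviation of cyclosporin A, which blocks the phosphatase calcineurin through cyclophilin, and the title names inhibition of the calcineurin-NFAT pathway as the question. The labels call the material reprogramming cells and name no starting cell type. No group without doxycycline, no starting cells and no established pluripotent cells are among the arrays, so levels cannot be set against a fully silent or a fully active network. The arrays read bulk RNA, and fewer cells of a type and less RNA per cell cannot be told apart.

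In naive pluripotent cells a group of transcription factors, among them Nanog, Esrrb, Klf2, Klf5, Tbx3, Tfcp2l1 and Sall4, occupy each other's promoters and enhancers and sustain each other together with Oct4 and Sox2. LIF supports this network through its receptor subunits Lifr and gp130 (Il6st) and the transcription factor Stat3, while Fgf4, which the same cells secrete, drives them toward differentiation. During reprogramming of somatic cells some of these genes become active early and others, such as Dppa3 and Zfp42, only late.

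Values are log2 signals, 1 per probe set and array, and a difference of 1 is a 2-fold change. As a yardstick for a silent gene, the 95th percentile of 80 olfactory and vomeronasal receptor probe sets was taken on each array, and it lay between 5.57 and 6.25. By that line, 18 of the 40 members were above background on all 8 arrays, 16 on some and 6 on none, and of all genes 56.5% were above it on every array. The members above background on both arrays of a group numbered 21 in CSA at day 6, 29 in DMSO at day 6, 21 in CSA at day 3 and 22 in DMSO at day 3. The line itself differed, at 5.91 and 6.25 on the CSA and 5.57 and 5.74 on the DMSO arrays of day 6. These counts are thus not at 1 cut-off, and the same counts over all genes were not made. Levels of members are compared only within a probe set, since signals of different probe sets are not on 1 scale. The median signal of the arrays ran from 6.15 to 6.53, and 2 arrays a group limit the precision of every comparison.

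Markers of other cell types also moved between these groups, and 11 of 14 fibroblast, 8 of 9 epithelial and 4 of 8 keratinocyte markers were above background on all arrays. The summed linear signal of 14 fibroblast markers was 40769 and 41354 in CSA and 43152 and 43447 in DMSO at day 6, and 18165 and 17975 in CSA and 15247 and 15180 in DMSO at day 3. The 9 epithelial markers summed to 31765 and 31727 in CSA and 43882 and 41360 in DMSO at day 6, against 26953 and 26818 in CSA and 20923 and 22053 in DMSO at day 3. Fibroblast and epithelial sums were thus higher at day 6 in both treatments, while the epithelial sum in CSA was below DMSO at day 6 and above it at day 3. Keratinocyte markers (8 genes) summed to between 7211 and 7690 on the 4 CSA arrays and between 4887 and 5117 on the 4 DMSO arrays. These sums follow the brightest probe sets: Krt8 made up 47.1% to 64.8% of the epithelial sum and Krt14 50.3% to 82.2% of the keratinocyte sum. Taken singly, 4 of the 9 epithelial markers passed the test as lower in CSA than in DMSO at day 6 and 4 as higher at day 3. The shares of all genes were 3.56% and 4.35%. Epcam and Krt18 differed by -0.37 and -0.48 at day 3 without passing. Of the 8 keratinocyte markers, 2 were higher and 4 lower at day 6 than at day 3 in DMSO, beside 16.9% and 12.9% of all genes. For CSA against DMSO at day 6, 4 keratinocyte markers were higher and 0 lower, and 2 of the 14 fibroblast markers were higher and 2 lower. Of all genes, 3.9% were higher and 3.56% lower there. The germ cell markers Ddx4, Dazl and Mael, the trophoblast markers Cdx2 and Eomes, the endoderm marker Foxa2 and the leukocyte marker Ptprc were above background on no array. Other markers of these lists were not silent: 3 of 6 macrophage, 2 of 5 trophoblast and 1 of 5 primitive endoderm markers were above background on all arrays. For the germ cell list that number was 0 of 5. The sums of the macrophage, germ cell, trophoblast and primitive endoderm lists lay between 475 and 751, 91.9 and 214, 317 and 1169, and 405 and 673 over the arrays. The part of these markers in the results on the members was not tested.

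**Figure D1:**
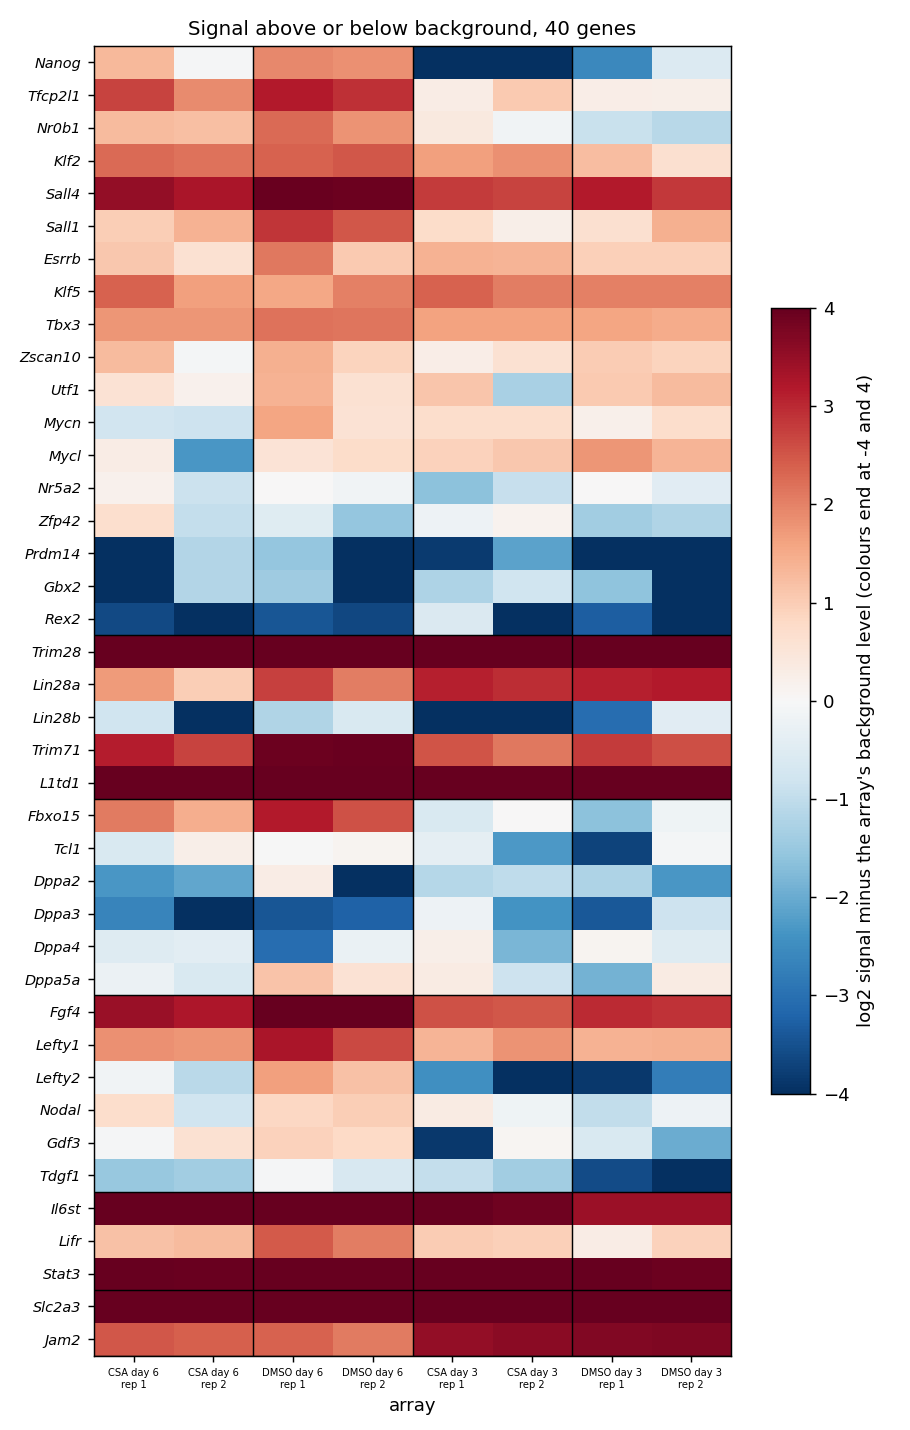
Log2 signal minus the background level of the same array for 40 members in rows, grouped by role with black lines between the roles, and 8 arrays in columns. Red is above and blue below background, colours end at -4 and 4, and shades are to be read along a row; Prdm14, Gbx2 and Rex2 are blue on every array, while Nanog and Lefty2 are red only on day 6 arrays.

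More members passed the test over the day course than for CSA against DMSO. In CSA, 10 of 40 members (25%) were higher and 2 (5%) lower at day 6 than at day 3, against 12.7% higher and 9.91% lower over all genes. In DMSO, 17 members (42.5%) were higher and 2 (5%) lower, while over all genes 16.9% were higher and 12.9% lower. Of the 17, 16 were above background on at least 1 array, and the other was Tdgf1. The share of members that was higher was above that of all genes in both courses, and the share that was lower was below it. The median change over members was 0.46 in CSA and 0.57 in DMSO, beside 0.12 and 0.04 over all genes. The split depends on the scaling: in CSA it was 10 higher and 4 lower after quantile normalization and 7 and 4 with each array centred on its median, a setting that moves the median of all genes to -0.25 in CSA and -0.18 in DMSO. Without DMSO day 6 replicate 1, 12 members were past the threshold in DMSO. With the probe sets of a gene averaged, Tfcp2l1, Lin28a and Fgf4 no longer passed in CSA, and Tfcp2l1, Lin28a, Sall4, Sall1, Stat3 and Lifr no longer passed in DMSO.

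CSA at day 6 left 4 members lower and 1 higher than DMSO, or 10% and 2.5% of the 40, with 3.56% of all genes lower and 3.9% higher. The counts at day 3 were also 4 lower and 1 higher, with 3.12% of all genes lower and 4.35% higher. The median CSA difference over members was -0.27 at day 6 and 0.08 at day 3, beside 0.02 and -0.02 over all genes. Over members above background on at least 1 array of the comparison, it was -0.31 at day 6 (33 members) and -0.10 at day 3 (30 members), so that the sign at day 3 rests on silent members, and over all such genes it was -0.01 at both days. The difference between the CSA effects at day 6 and day 3, which is equally the difference between the day courses, was past the threshold and positive for 1 member, Jam2. Over all genes 1.29% were past it on the positive and 1.89% on the negative side. All of these are limma tests with Benjamini-Hochberg adjustment over 45037 probe sets and a threshold of 0.05.

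The counts for CSA are sensitive to single arrays. With centred arrays the day 3 split was 1 higher and 2 lower. At day 6 the members past the threshold numbered 3 without CSA replicate 2, 2 without DMSO replicate 1 and 3 without DMSO replicate 2, and at day 3 they numbered 1 without either CSA array and 3 without either DMSO array. Not all of these were among the 5 of all arrays. At day 3 Utf1 passed without CSA replicate 1, where the 1 CSA array left was under its background. Without DMSO replicate 1, Nanog passed beside L1td1 and Slc2a3, and Nanog was above background on no day 3 array. With the probe sets of a gene averaged, Fgf4, Trim71, Jam2 and Slc2a3 no longer passed at day 6, nor Fgf4 and Il6st at day 3. With no intensity trend in the spread, no member passed for CSA at either day with limma, while 10 at each day had an unadjusted p under 0.05.

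**Figure D2:**
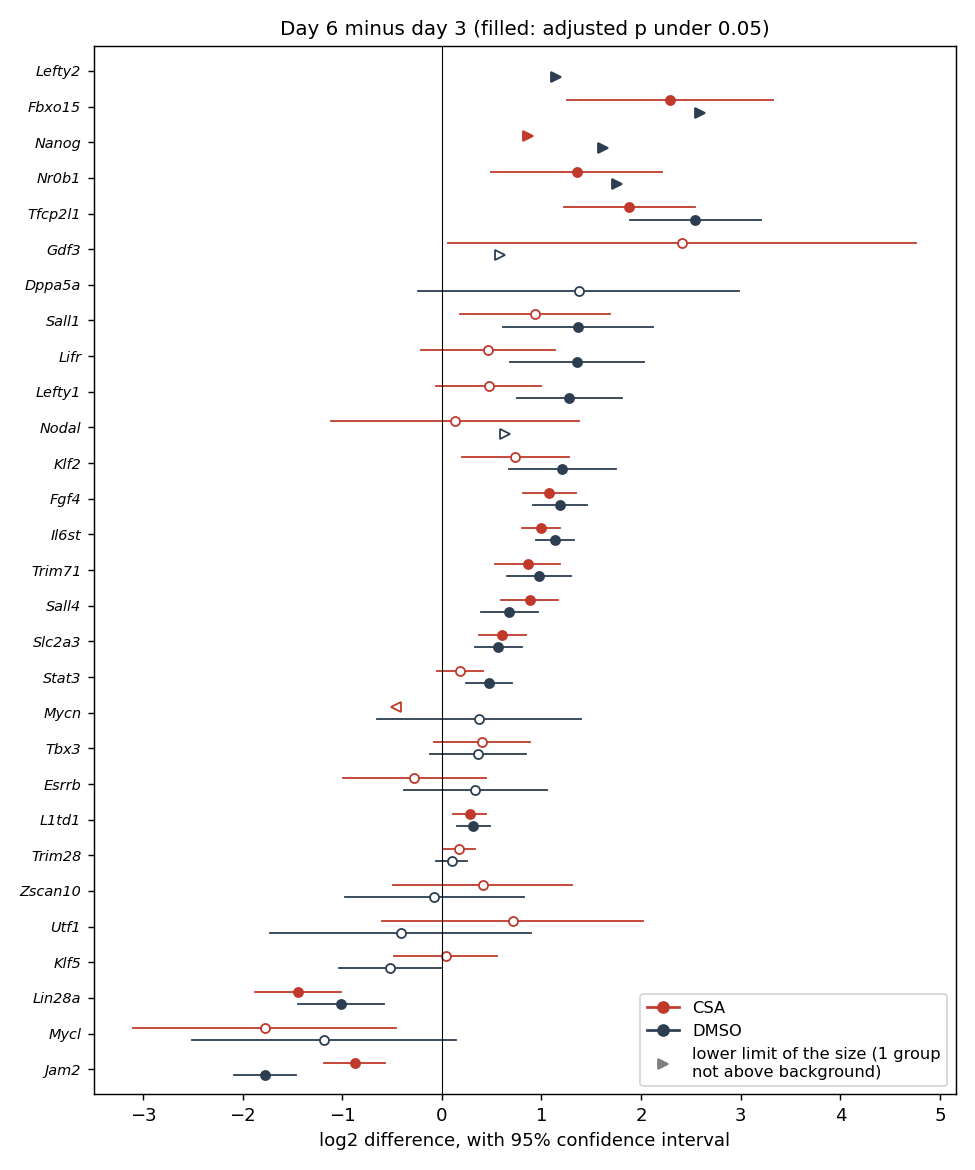
Log2 difference of day 6 minus day 3 in CSA and in DMSO for the 29 members above background on both arrays of at least 1 group, with 95% confidence intervals of the fit. Filled points are past an adjusted p of 0.05, and a triangle without an interval stands at the lower limit of the difference where 1 of the days was not above background. A filled triangle is past it for the difference between the signals as given, not for the limit. Values are left out where neither day was above background or that limit was under 0; Nanog and Fbxo15 lie right of 0 in both treatments, and Jam2 and Lin28a left of it.

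Among the 18 transcription factors, 4 rose over the day course in CSA and 6 in DMSO, and none fell. Of all genes, 12.7% rose and 9.91% fell in CSA, and 16.9% rose and 12.9% fell in DMSO. None was past the threshold for CSA at either day, with limma's unadjusted p under 0.05 for 3 of them at day 6 and 5 at day 3. Nanog, the homeodomain factor whose activation marks the passage to a self-sustaining network, was detectable at day 6 and at background at day 3. Its signals were 7.20 and 6.21 in CSA and 7.51 and 7.56 in DMSO at day 6, 1.78 and 1.24 in CSA and 3.34 and 5.39 in DMSO at day 3. All 4 day 3 arrays were under the background line, and 1 of the 2 CSA day 6 arrays (6.21) was just under the line of its array (6.25). Because the day 3 level is only a bound, the rise is given as at least 1.82-fold in CSA (adjusted p = 0.00119) and at least 3.06-fold in DMSO (adjusted p = 0.0181). Here and for other bounds, the adjusted p is that of the difference between the signals as given, under background included. The bound itself was not tested. The call in DMSO was lost without DMSO day 3 replicate 1 (adjusted p = 0.125) and without either DMSO day 6 array (adjusted p = 0.103 and 0.115).

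At day 6 the CSA effect on Nanog was -0.83 (SE 0.87, adjusted p = 0.726), with a 95% confidence interval from -2.73 to 1.06. The 2 CSA signals were both below the 2 DMSO signals.

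The promoters of 26 of the 40 members were in the RefSeq table (GRCm38.p6), each running from 250 bases before to 50 bases after a start site. The Oct-Sox composite, the paired site of Oct4 and Sox2 (TTTGCAT, 1 base of any kind, ACAATG, both strands), was in 2 of 32851 promoters (0.006%), and both were entries of Nanog. These entries overlap and hold the same site. Only exact letters were searched, so variants of the composite in other promoters were not counted. The KLF motif GGGCGTGG, which Klf2, Klf4 and Klf5 can bind, was in 5.33% of all promoters and in 6 of the 32 member promoters, with both Nanog entries counted. By gene these were 5 of the 26 members: Nanog, Tfcp2l1, L1td1, Nr5a2 and Tdgf1. The octamer ATGCAAAT, the site of Oct4, was in 1.735% of all promoters and in that of Zfp42 alone among the members. The motif of Stat3, TTCC and GGAA with 1 base between, was in 1.148% of all promoters and, among the members, in that of Zscan10. No motif overlapped another in the promoters printed here. The 3 shown are those of the member with the composite, of a factor that rose in both treatments, and of a late gene that did not rise. Nanog is at chr6:122707315-122707614 on the plus strand, Tfcp2l1 at chr1:118627695-118627994 on the plus strand, and Zfp42 at chr8:43306960-43307259 on the minus strand, each printed 5′ to 3′ along its gene with the motifs in capitals.
Nanog: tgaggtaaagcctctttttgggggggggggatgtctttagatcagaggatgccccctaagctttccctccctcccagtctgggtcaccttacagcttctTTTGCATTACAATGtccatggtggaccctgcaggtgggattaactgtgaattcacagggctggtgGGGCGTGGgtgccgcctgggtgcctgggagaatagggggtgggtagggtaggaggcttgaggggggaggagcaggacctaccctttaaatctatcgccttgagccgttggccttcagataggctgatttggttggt
Tfcp2l1: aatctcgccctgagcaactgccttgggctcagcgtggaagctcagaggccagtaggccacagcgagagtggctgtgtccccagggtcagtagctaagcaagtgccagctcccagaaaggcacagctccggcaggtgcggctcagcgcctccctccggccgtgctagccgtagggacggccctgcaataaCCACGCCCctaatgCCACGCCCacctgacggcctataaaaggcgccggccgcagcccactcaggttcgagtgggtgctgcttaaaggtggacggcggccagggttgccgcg
Zfp42: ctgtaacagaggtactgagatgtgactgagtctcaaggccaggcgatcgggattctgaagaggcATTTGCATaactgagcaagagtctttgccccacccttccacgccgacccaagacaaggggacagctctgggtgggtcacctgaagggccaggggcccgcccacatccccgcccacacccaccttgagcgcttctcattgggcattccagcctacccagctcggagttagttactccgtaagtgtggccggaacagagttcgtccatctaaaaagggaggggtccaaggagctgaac
The composite of Nanog starts 151 bases before the start site and its KLF motif 86 bases before it. Tfcp2l1 has the KLF motif on the opposite strand at 61 and 47 bases before its start, and the octamer of Zfp42, also on the opposite strand, lies 186 bases before the start. These matches describe letters in a window, and binding was not measured.

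Tfcp2l1, a factor that carries the LIF signal into the network, was above background on every array. It had signals of 8.62 and 8.15 in CSA and 8.75 and 8.65 in DMSO at day 6, and of 6.07 and 6.94 in CSA and 6.16 and 6.15 in DMSO at day 3. Every day 6 array was above every day 3 array. The rise was 1.88 in CSA (SE 0.30, adjusted p = 0.000857) and 2.54 in DMSO (SE 0.30, adjusted p = 4.48e-05), or 3.69-fold and 5.83-fold. Its other 2 probe sets, near or under background, showed no rise, and with the mean of the 3 probe sets neither course passed.

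Nr0b1 (Dax1), a nuclear receptor without a usual DNA-binding domain that works with Nanog and Oct4, had signals of 7.18 and 7.45 in CSA and 7.84 and 7.52 in DMSO at day 6. At day 3 it had 6.17 and 5.76 in CSA and 5.03 and 4.83 in DMSO, where both DMSO arrays and 1 CSA array were not above background. In CSA the rise was 1.35 (SE 0.39, adjusted p = 0.0326), and in DMSO it was at least 3.39-fold (adjusted p = 0.000195). The CSA call was lost without either CSA day 3 array (adjusted p = 0.0641 and 0.155), either DMSO day 6 array (0.0638 and 0.0583) or either CSA day 6 array (0.0926 and 0.180), and after quantile normalization. The CSA effect on Nr0b1 was -0.36 at day 6 (adjusted p = 0.738), and at day 3, where DMSO has only a bound, it was not past the threshold (adjusted p = 0.190).

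Klf2, a Krüppel-like factor of the naive state, had signals of 8.19 and 8.42 in CSA and 7.94 and 8.22 in DMSO at day 6, against 7.43 and 7.71 in CSA and 7.15 and 6.58 in DMSO at day 3. Day 6 lay above day 3 within each treatment. The difference in CSA was 0.74 (adjusted p = 0.0605) and the rise in DMSO 1.21 (SE 0.25, adjusted p = 0.00277). The CSA difference did pass with the filter on low signals (adjusted p = 0.0393) and with the 4 arrays compared alone (0.0339). Sall4, a zinc finger factor that partners Oct4 and Nanog, had 9.44 and 9.51 in CSA and 9.53 and 9.66 in DMSO at day 6, and 8.59 and 8.59 in CSA and 9.07 and 8.77 in DMSO at day 3. It rose in both courses without overlap, by 0.88 in CSA (adjusted p = 0.000488) and 0.68 in DMSO (adjusted p = 0.00195). Its second probe set differed by 0.65 in each course and passed in neither.

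Sall1, of the same family, showed signals of 6.88 and 7.63 in CSA and 8.44 and 8.22 in DMSO at day 6, and 6.52 and 6.12 in CSA and 6.56 and 7.36 in DMSO at day 3. The day 6 signals in DMSO were above all others. The difference in CSA was 0.93 (adjusted p = 0.0920), the rise in DMSO 1.37 (SE 0.35, adjusted p = 0.0115), and the CSA effect at day 6 -1.07 (SE 0.35, adjusted p = 0.113). The DMSO call was lost without DMSO day 3 replicate 1 (adjusted p = 0.108) and without DMSO day 6 replicate 1 or 2 (0.0953 and 0.0522).

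**Figure D3:**
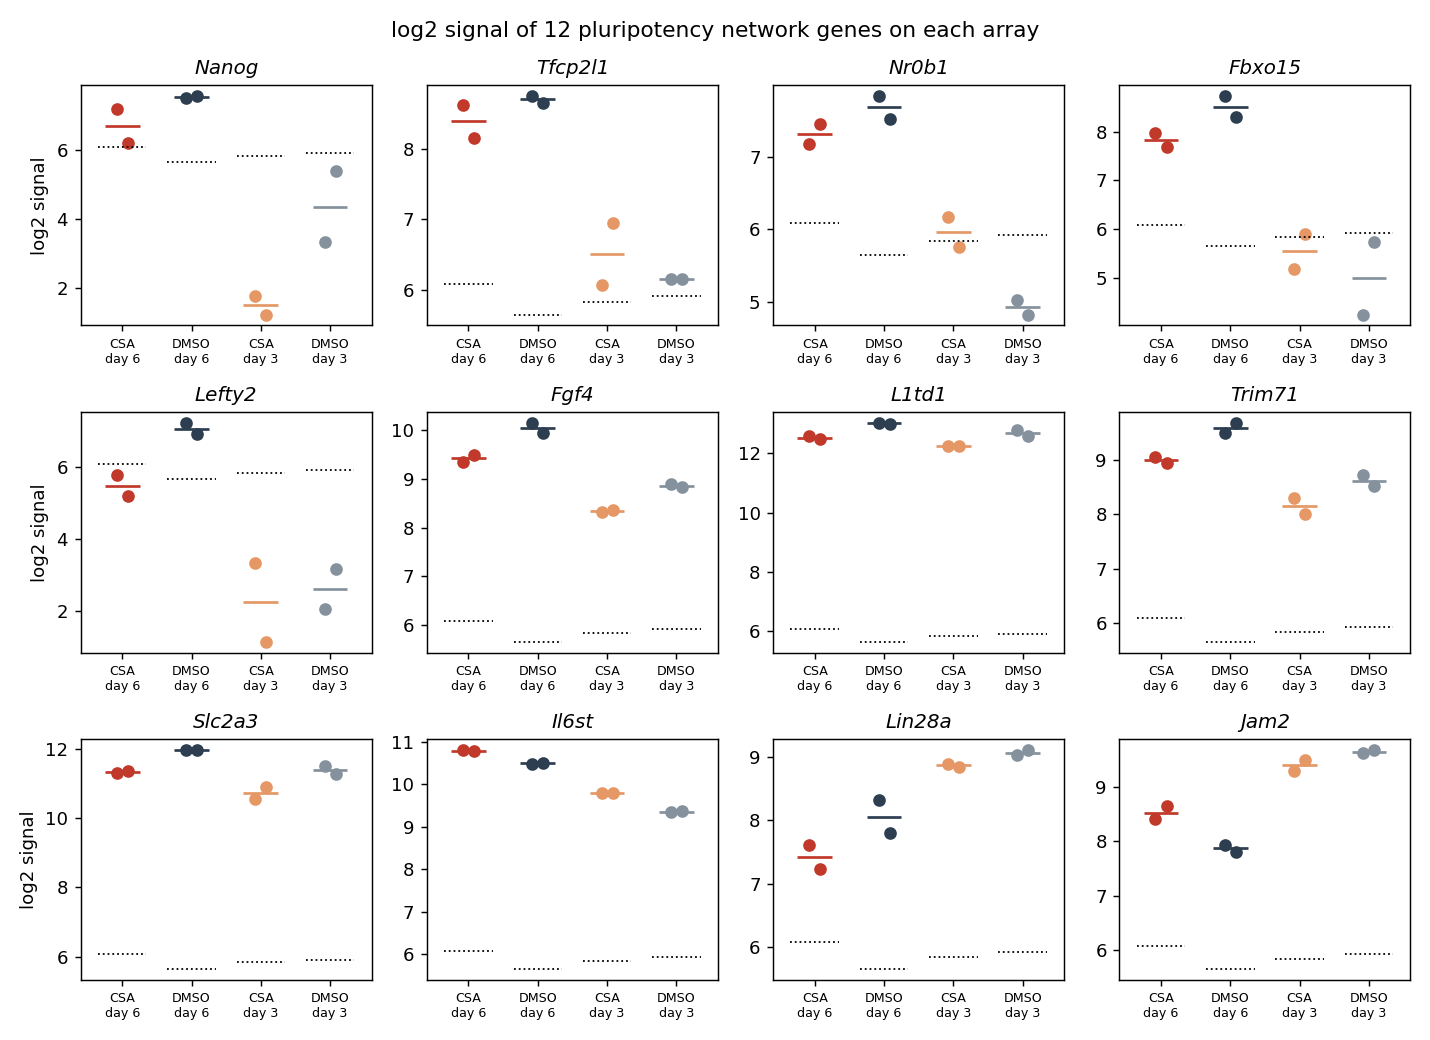
Log2 signal of 12 members in the 4 groups, with 1 point per array, a solid line at each group mean and a dotted line at the mean background level of the group's arrays. Axis ranges differ between panels and do not start at 0. Fbxo15 is clearly above background at day 6 only. Nanog is clearly above it in DMSO at day 6, while 1 of its 2 CSA day 6 points is just under the level of its own array. L1td1, Fgf4 and Slc2a3 are lower in CSA than in DMSO at both days.

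A further group of transcription factors passed in no comparison of the fit reported. Esrrb, an orphan nuclear receptor of the naive network, had 7.0 and 6.85 in CSA and 7.68 and 6.77 in DMSO at day 6, and 7.16 and 7.25 in CSA and 6.88 and 6.90 in DMSO at day 3. In CSA both day 6 arrays lay below both day 3 arrays without passing the test (-0.28, adjusted p = 0.672), and in DMSO the days overlapped (0.34, adjusted p = 0.557). Klf5 had 8.27 and 7.90 in CSA and 7.11 and 7.74 in DMSO at day 6, and between 7.93 and 8.16 on the 4 day 3 arrays, and the CSA effect at day 6 was 0.66 (SE 0.24, adjusted p = 0.160). Over the course Klf5 differed by -0.52 in DMSO (SE 0.24, adjusted p = 0.151), and it passed as lower there after quantile normalization (-0.82, adjusted p = 0.0261), with centred arrays (-0.74, adjusted p = 0.0356) and without DMSO day 6 replicate 2 (-0.83, adjusted p = 0.0485). Tbx3, a T-box factor, ran from 7.39 to 8.03 over the 8 arrays, with all day 6 arrays above all day 3 arrays and adjusted p = 0.274 in CSA and 0.296 in DMSO. Zscan10 and the chromatin protein Utf1 lay between 6.04 and 7.18 and between 4.61 and 7.20. Without CSA day 3 replicate 1 (6.89), Utf1 passed as lower in CSA at day 3 (-2.47) and as higher over the course in CSA (1.85). The 1 array left in that group read 4.61, under its background of 5.89, so neither size was measured.

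Mycn and Mycl, relatives of the reprogramming factor c-Myc, had lower values in some groups without passing the threshold in the fit reported. Mycn had 5.15 and 5.42 in CSA, under background, and 7.16 and 6.31 in DMSO at day 6. With only a bound in CSA the size of that difference was not measured, it did not pass (adjusted p = 0.116), and 2 other Mycn probe sets differed the other way. Mycl had 6.20 and 3.91 in CSA and 6.12 and 6.47 in DMSO at day 6, against 6.71 and 6.96 in CSA and 7.66 and 7.28 in DMSO at day 3. The day difference of Mycl was -1.78 in CSA (SE 0.61, adjusted p = 0.0673) and -1.18 in DMSO (SE 0.61, adjusted p = 0.210), and its CSA effect at day 6 was -1.23 (adjusted p = 0.339). Over the course in CSA, Mycn and Mycl passed as lower after quantile normalization (adjusted p = 0.0355 and 0.0382), with centred arrays (0.0257 and 0.0224) and with the filter on low signals (0.0455 and 0.0430). Without CSA day 6 replicate 1, Mycl passed as lower over the course in CSA (-2.92) and for CSA at day 6 (-2.38). The 1 array left in that group read 3.91, under its background of 6.25, so neither size was measured. Without CSA day 6 replicate 2, Mycl passed as lower over the course in DMSO (-1.18).

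Zfp42 (Rex1), a zinc finger gene used as a marker of late reprogramming, was above background on 1 CSA array at day 6 (6.58) and 1 at day 3 (6.03), and on no DMSO array. Nr5a2, an orphan nuclear receptor that binds Oct4's gene, ran from 4.14 to 6.09 and was above background on 3 of 8 arrays. Prdm14, Gbx2 and Rex2 were above background on no array.

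The 5 members grouped as a corepressor and RNA-binding proteins gave 2 of the falls under CSA at each day. Of all genes, 3.56% were lower in CSA at day 6 and 3.12% at day 3. L1td1, an RNA-binding protein derived from the first open reading frame of a LINE-1 element, had 12.57 and 12.49 in CSA and 13.02 and 13.00 in DMSO at day 6, and 12.26 and 12.24 in CSA and 12.79 and 12.60 in DMSO at day 3. At each day both CSA arrays lay below both DMSO arrays. The CSA effect was -0.48 at day 6 (SE 0.08, adjusted p = 0.0025) and -0.45 at day 3 (SE 0.08, adjusted p = 0.00455), that is 1.40-fold and 1.36-fold lower in CSA. The day 3 call was lost without CSA day 3 replicate 1 (adjusted p = 0.0521) or replicate 2 (0.0621), and the day 6 call stood when any single array was left out.

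L1td1 also rose over the course, by 0.28 in CSA (adjusted p = 0.0227) and 0.31 in DMSO (adjusted p = 0.00836). These small rises depend on the scaling: with each array centred on its median, the difference was -0.08 in CSA (adjusted p = 0.642) and 0.09 in DMSO (adjusted p = 0.536). Single arrays decide them too. The CSA course was not called without CSA day 3 replicate 1 (adjusted p = 0.105) or 2 (0.125) or CSA day 6 replicate 1 (0.132), and the DMSO course not without DMSO day 3 replicate 2 (0.0807) or DMSO day 6 replicate 1 (0.0602).

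Trim71, an RNA-binding repressor of translation that the let-7 microRNAs target, had 9.07 and 8.96 in CSA and 9.50 and 9.69 in DMSO at day 6, and 8.30 and 8.0 in CSA and 8.72 and 8.52 in DMSO at day 3. Its arrays separated by day in each treatment and by treatment at each day. It rose by 0.86 in CSA (adjusted p = 0.00152) and 0.98 in DMSO (adjusted p = 0.000341), and its second probe set rose by 1.40 and 1.64. The CSA effect was -0.58 at day 6 (SE 0.15, adjusted p = 0.043) and -0.47 at day 3 (adjusted p = 0.109). The day 6 call was lost without CSA day 3 replicate 1 (adjusted p = 0.0502), either DMSO day 6 array (0.110 and 0.280) or either CSA day 6 array (0.108 and 0.214).

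Lin28a, the RNA-binding protein that blocks maturation of let-7, moved the opposite way. It had 7.62 and 7.23 in CSA and 8.31 and 7.79 in DMSO at day 6, against 8.89 and 8.84 in CSA and 9.03 and 9.11 in DMSO at day 3. All day 6 arrays were below all day 3 arrays. The day difference was -1.44 in CSA (SE 0.20, adjusted p = 0.000274) and -1.02 in DMSO (SE 0.20, adjusted p = 0.00209). At day 6 the CSA effect was -0.63 (adjusted p = 0.103). Its relative Lin28b was above background on no array.

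Trim28, the corepressor that KRAB zinc finger proteins recruit to silence retroelements, had 12.28 and 12.35 in CSA and 12.59 and 12.47 in DMSO at day 6, and 12.18 and 12.11 in CSA and 12.40 and 12.47 in DMSO at day 3. CSA lay below DMSO at both days. The effect was -0.22 at day 6 (adjusted p = 0.121) and -0.29 at day 3 (SE 0.07, adjusted p = 0.0368), and a second probe set gave -0.33 (adjusted p = 0.0305) at day 3. The day 3 call on the first probe set was lost without either DMSO day 3 array (adjusted p = 0.0691 and 0.174), either CSA day 3 array (0.122 and 0.259) or either DMSO day 6 array (0.0524 and 0.0522), and with centred arrays. That call was also lost after quantile normalization (adjusted p = 0.0695), with a floor (0.0936), with no trend (0.461) and with the 4 arrays alone (0.0594). The second probe set rose over the course, by 0.48 in CSA and 0.33 in DMSO. The first, of a type that can also read similar transcripts, did not pass in the fit reported. After quantile normalization it passed as higher over both courses (adjusted p = 0.0100 in CSA and 0.00526 in DMSO). It then also passed as lower in CSA at day 6 (adjusted p = 0.0485).

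Of the 6 germ line and embryonic genes, Fbxo15 alone passed the test in the fit reported, and the other 5 were near background, where changes could hardly be measured. This F-box gene, a target of Oct4 and Sox2 whose locus served as the selection marker in early work on induced pluripotency, had 7.98 and 7.69 in CSA and 8.73 and 8.29 in DMSO at day 6, against 5.19 and 5.91 in CSA and 4.26 and 5.75 in DMSO at day 3. All day 6 arrays were above background, and 1 of the 4 day 3 arrays was, that of CSA replicate 2. In CSA the rise was 2.29 (SE 0.48, adjusted p = 0.00501), and in DMSO it was at least 6.03-fold (adjusted p = 0.000131). The CSA call was lost without CSA day 3 replicate 1 (adjusted p = 0.0538) or CSA day 6 replicate 1 (0.0540). The CSA effect on Fbxo15 at day 6 was -0.68 (SE 0.48, adjusted p = 0.551), with both CSA arrays below both DMSO arrays.

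Dppa3 (Stella), which protects the maternal genome from demethylation, was above background on no array. Dppa2 and Dppa4, which work as a pair on chromatin, were above it on 1 and 2 arrays, and their 8 signals ran from 0.58 to 5.86 and from 2.52 to 6.02. Dppa5a was above background on both DMSO arrays at day 6 (6.72 and 6.31), on 1 array in each day 3 group and on neither CSA array at day 6 (5.69 and 5.64), and CSA against DMSO at day 6 did not pass (adjusted p = 0.659). Tcl1, a cofactor of the kinase Akt, was above it on 1 array of each day 6 group. Without DMSO day 3 replicate 2, Dppa5a and Tcl1 passed as higher over the course in DMSO (2.50 and 3.48). The 1 day 3 array left read 4.01 and 2.21 for them, under its background of 5.91, so neither size was measured.

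Of the 6 ligands and co-receptors, 1 rose over the course in CSA and 3 in DMSO, beside 12.7% and 16.9% of all genes. In DMSO Tdgf1 also passed without being above background on any array. Fgf4, the growth factor through which embryonic stem cells signal to each other, had 9.35 and 9.50 in CSA and 10.15 and 9.94 in DMSO at day 6, and 8.32 and 8.36 in CSA and 8.89 and 8.83 in DMSO at day 3. Each group was apart from the other 3. The rise was 1.08 in CSA (SE 0.12, adjusted p = 7.41e-05) and 1.19 in DMSO (SE 0.12, adjusted p = 1.64e-05). Of the other 2 Fgf4 probe sets above background on all arrays, 1 rose by 1.12 in CSA and 1.08 in DMSO, and the other differed by 0.23 (adjusted p = 0.533) and 0.55 (adjusted p = 0.0634). With the probe sets averaged, the rise in CSA was not called (0.70, adjusted p = 0.122). The CSA effect was -0.62 at day 6 (SE 0.12, adjusted p = 0.0118) and -0.52 at day 3 (SE 0.12, adjusted p = 0.0311), that is 1.54-fold and 1.43-fold lower in CSA.

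A second Fgf4 probe set, of a type that can also read similar transcripts, gave CSA effects of -0.70 at day 6 (adjusted p = 0.0205) and -0.74 at day 3 (adjusted p = 0.0147). Another, not of that type and also above background on all arrays, gave -0.45 and -0.12 without passing. The day 6 call was lost without DMSO day 6 replicate 1 (adjusted p = 0.136) or CSA day 6 replicate 1 (0.0872), and the day 3 call without DMSO day 3 replicate 1 (0.124) or 2 (0.0850) or CSA day 3 replicate 1 (0.165) or 2 (0.136).

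Lefty1 and Lefty2, secreted inhibitors of Nodal, rose in DMSO. Lefty1 had 7.74 and 8.03 in CSA and 8.83 and 8.37 in DMSO at day 6, against 7.15 and 7.67 in CSA and 7.29 and 7.36 in DMSO at day 3. The 2 DMSO arrays of day 6 were above all others. The difference in CSA was 0.47 (adjusted p = 0.239), the rise in DMSO 1.28 (SE 0.24, adjusted p = 0.00168), and the CSA effect at day 6 -0.72 (adjusted p = 0.129).

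Lefty2 was above background only on the DMSO day 6 arrays, with 5.76 and 5.18 in CSA and 7.22 and 6.91 in DMSO at day 6, against 3.33 and 1.15 in CSA and 2.06 and 3.16 in DMSO at day 3. The rise in DMSO was at least 2.21-fold (adjusted p = 0.00699), and it was not called without DMSO day 6 replicate 1 (adjusted p = 0.0629). The difference between the courses of the treatments was -0.81 for Lefty1 and did not pass (adjusted p = 0.319), and with 3 groups not above background it was not measured for Lefty2.

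Nodal itself, the ligand of that pathway, and its relative Gdf3 were near background. Nodal had 6.63 and 5.45 in CSA and 6.39 and 6.73 in DMSO at day 6, and 6.10 and 5.71 in CSA and 4.94 and 5.73 in DMSO at day 3. Gdf3 had 5.85 and 6.86 in CSA and 6.49 and 6.52 in DMSO at day 6, and 1.93 and 5.96 in CSA and 5.29 and 3.96 in DMSO at day 3. Neither passed in any comparison of the fit reported, and without CSA day 3 replicate 2 Gdf3 passed as higher over the course in CSA. The 1 CSA day 3 array left read 1.93, under its background of 5.78, so the size was not measured. Tdgf1 (Cripto), their co-receptor, was past the threshold for the day course in DMSO (adjusted p = 0.0179), but it was above background on no array and has no fold.

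Of the LIF receptor genes and Stat3, 1 of 3 rose over the course in CSA and all 3 in DMSO, beside 12.7% and 16.9% of all genes. Il6st (gp130), the signalling subunit, had 10.80 and 10.77 in CSA and 10.49 and 10.51 in DMSO at day 6, and 9.79 and 9.79 in CSA and 9.34 and 9.37 in DMSO at day 3. Its replicates lay close together and CSA was above DMSO at both days. The rise was 1.0 in CSA (SE 0.09, adjusted p = 9.21e-06) and 1.14 in DMSO (SE 0.09, adjusted p = 1.43e-06), and it stood under every alternative run. The CSA effect on Il6st was 0.29 at day 6 (adjusted p = 0.0866) and 0.43 at day 3 (SE 0.09, adjusted p = 0.0123), or 1.35-fold higher at day 3. The day 3 call was lost without DMSO day 3 replicate 1 (adjusted p = 0.0521) or CSA day 3 replicate 1 (0.0878) or 2 (0.0924), and the other 3 probe sets were higher by 0.20 to 0.24 at day 3 without passing.

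Lifr, the ligand-binding subunit, had 7.07 and 7.51 in CSA and 8.01 and 7.77 in DMSO at day 6, and 6.81 and 6.85 in CSA and 6.21 and 6.85 in DMSO at day 3. The difference in CSA was 0.46 (adjusted p = 0.396) and the rise in DMSO 1.36 (SE 0.31, adjusted p = 0.00597), which was lost without DMSO day 6 replicate 1 (adjusted p = 0.0631). Both DMSO signals of day 6 were above the rest. Stat3 had 10.22 and 10.20 in CSA and 10.55 and 10.29 in DMSO at day 6, and 10.02 and 10.04 in CSA and 10.04 and 9.85 in DMSO at day 3. Stat3 differed by 0.18 in CSA (adjusted p = 0.318) and rose by 0.48 in DMSO (adjusted p = 0.00561), and its second probe set rose by 0.75 in CSA and 0.68 in DMSO. The DMSO call was lost with each array centred on its median, where the difference was 0.26 (adjusted p = 0.157), and without DMSO day 3 replicate 2 (adjusted p = 0.0551) or DMSO day 6 replicate 1 (0.0827).

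The 2 surface proteins moved apart. Slc2a3 (GLUT3), a glucose transporter of high affinity found in early embryos and neurons, had 11.30 and 11.35 in CSA and 11.95 and 11.95 in DMSO at day 6, and 10.55 and 10.89 in CSA and 11.50 and 11.28 in DMSO at day 3. CSA was below DMSO at both days, by -0.63 at day 6 (SE 0.11, adjusted p = 0.00442) and -0.67 at day 3 (SE 0.11, adjusted p = 0.00318), or 1.55-fold and 1.59-fold lower. Slc2a3 rose over the course by 0.61 in CSA (adjusted p = 0.00175) and 0.57 in DMSO (adjusted p = 0.00169), and with each array centred on its median the difference in CSA was 0.25 and did not pass (adjusted p = 0.172). The day 3 effect of CSA was not called without CSA day 3 replicate 1 (adjusted p = 0.0502). Both its bright probe sets are of types that can also read similar transcripts; the second gave -0.59 at day 6 and -0.81 at day 3, both past the threshold, and the brightest one without that limit gave -0.76 at day 6 (adjusted p = 0.495) and -1.12 at day 3 (adjusted p = 0.262). That last one passed in neither course (1.34 in CSA, adjusted p = 0.0819, and 0.98 in DMSO, adjusted p = 0.189).

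Jam2, a junctional adhesion molecule, fell over the course and less so in CSA. It had 8.40 and 8.65 in CSA and 7.94 and 7.81 in DMSO at day 6, against 9.29 and 9.50 in CSA and 9.62 and 9.67 in DMSO at day 3. At day 6 both CSA arrays were above both DMSO arrays, and at day 3 both were below. The day difference was -0.88 in CSA (SE 0.14, adjusted p = 0.000939) and -1.77 in DMSO (SE 0.14, adjusted p = 1.97e-06), and the difference between them was 0.90 (SE 0.20, adjusted p = 0.0412). CSA left Jam2 1.57-fold higher at day 6 (0.65, SE 0.14, adjusted p = 0.0196), while the difference at day 3 was -0.25 (adjusted p = 0.439).

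All 5 Jam2 probe sets were lower at day 6 than at day 3 in both treatments. A second gave a difference between the CSA effects of 1.01 (adjusted p = 0.0471) and a CSA effect at day 6 of 1.0 (adjusted p = 0.00346), and the other 3 gave differences between 0.82 and 1.0 that did not pass. At day 6 the CSA effect on those 3 was between -0.28 and 0.68 and passed on none, and with the probe sets averaged it was not called (0.52, adjusted p = 0.197). The day 6 effect of CSA was lost without DMSO day 6 replicate 1 (adjusted p = 0.0640) or 2 (0.135) or CSA day 6 replicate 2 (0.149), and the difference between the effects was lost when any array other than CSA day 6 replicate 1 was left out (adjusted p from 0.0873 to 0.186).

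**Figure D4:**
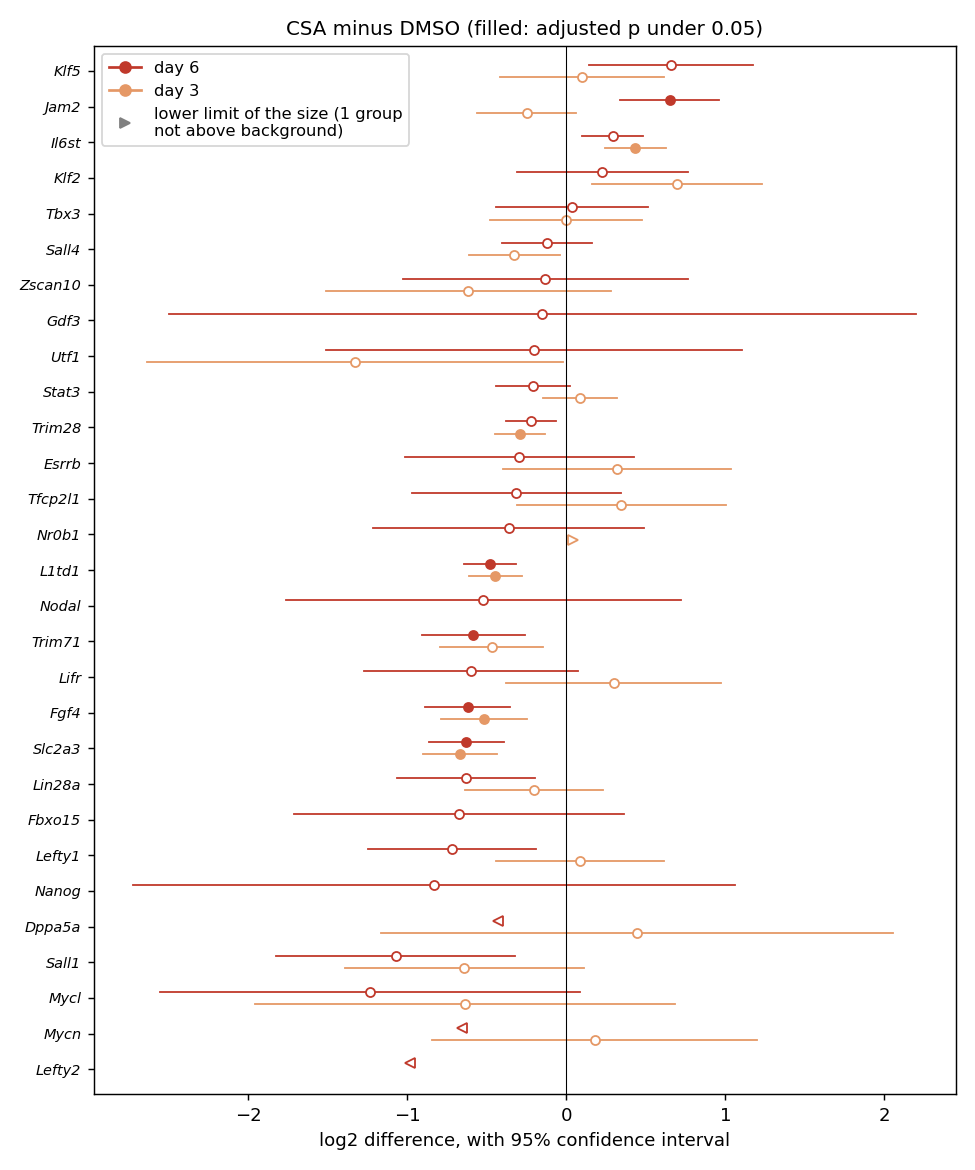
Log2 difference of CSA minus DMSO at day 6 and at day 3 for the same 29 members, with 95% confidence intervals of the fit. Filled points are past an adjusted p of 0.05, and a triangle without an interval stands at the lower limit of the difference where 1 of the treatments was not above background. Values are left out where neither treatment was above background or that limit was under 0; Slc2a3, Fgf4 and L1td1 lie left of 0 at both days, and Jam2 lies right of 0 at day 6 and not at day 3.

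Genes around the members were read from 6 lists outside the network. Their counts stand beside these shares of all genes. Over the course 12.7% rose and 9.91% fell in CSA, and 16.9% rose and 12.9% fell in DMSO. For CSA against DMSO, 3.9% were higher and 3.56% lower at day 6, and 4.35% higher and 3.12% lower at day 3. In LIF and Stat3 signalling, 4 of 14 genes rose and 1 fell over the course in CSA, and 6 rose and 1 fell in DMSO. Socs3, the inhibitor of the receptor, rose by 0.73 in CSA and 1.18 in DMSO, and Bcl3 by 1.45 and 1.25. CSA lowered 1 of the 14 at day 6, the kinase gene Pim3 (-0.43, adjusted p = 0.0134), and none passed at day 3 with limma, while 2 had an unadjusted p under 0.05.

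In Nodal and activin signalling, 4 of 13 genes rose and 1 fell in CSA, and 5 rose and 1 fell in DMSO. The receptor gene Acvr1b was lower in CSA at day 6 (-0.61, adjusted p = 0.00118) and higher at day 3 (0.40, adjusted p = 0.0189), with a difference between the effects of -1.01 (adjusted p = 0.00158). Its signals were 10.79 and 10.73 in CSA and 11.33 and 11.41 in DMSO at day 6, and 10.54 and 10.60 in CSA and 10.10 and 10.25 in DMSO at day 3. Of 8 genes of FGF signalling, which are ligands, receptors and adaptors, 2 rose in CSA, and 2 rose and 1 fell in DMSO. Fgfr1 was among the risers, by 0.48 in CSA and 0.73 in DMSO, and Fgfr3 was lower in CSA at day 6 (-0.69, adjusted p = 0.0162).

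Among 9 partners of Trim28, 3 rose in CSA, and 4 rose and 1 fell in DMSO over the course. The histone methyltransferase gene Setdb1 was lower in CSA at day 6 (-0.54, adjusted p = 0.0179), and the imprint guardian Zfp57 was lower in CSA at day 3 (-2.28, adjusted p = 0.0188), where its CSA signals were 6.13 and 4.05 and its DMSO signals 7.41 and 7.32. The CSA signal of 4.05 was under the background of its array (5.89), so the size of the Zfp57 difference is uncertain. Of 7 genes of formative and primed pluripotency, Fgf5, Otx2 and Pou3f1 were above background on no array. The de novo methyltransferase Dnmt3b was lower in CSA at both days (-1.27 at day 6 and -0.87 at day 3), and Dnmt3a was lower at day 6 (-0.48).

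Of 22 further genes of the naive state outside the member list, 4 rose and 1 fell over the course in CSA, and 7 rose and 2 fell in DMSO. With CSA, 1 was higher and 4 lower at day 6, and 3 were higher and 2 lower at day 3. Pou5f1 had 9.08 and 9.21 in CSA and 10.31 and 10.10 in DMSO at day 6, a difference of -1.07 (adjusted p = 0.00365), and the transcripts of the transgene and of the gene itself were not told apart. The probe set of Sox2, and those of Dnmt3l and Sall3, were above background on no array, although Sox2 is among the factors of the system.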

How the data were processed

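Total RNA of 8 cultures was labelled with biotin and hybridised to 1-colour Affymetrix arrays, per the labels' protocols. The table holds log2 values that the authors computed with MAS5, per the submitters' processing notes, for 45037 probe sets, while the version and the scaling target are not known here. MAS5 summarises the probes of a set to 1 value and scales an array by a constant, and low values are noisy. After removal of 2% at either end, the mean linear signal was 496.8 to 497.5 in each library, and between 110 and 259 entries were exactly 0. Detection calls were not used here.

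Gene symbols came from GEO's platform annotation: 34945 probe sets had 1 symbol, 932 several and 9160 were not listed, and 34741 of the first matched a current RefSeq gene with no symbol changed. The members and all lists were chosen with earlier results of these data known. Named genes are all listed members and, from each other list, up to 4 genes past the threshold with the smallest p in a comparison. Genes of the lists and cell type markers that are named as above background on no array, or as going against their list, were chosen after their values were seen.

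The deposited values were fitted with limma 3.58.1 in R 4.3.3, with 1 mean per group over all 8 arrays (4 residual degrees of freedom), an intensity trend and no filter. Tests were two-sided, with Benjamini-Hochberg adjustment over all probe sets and a threshold of 0.05. A group with no array above the background level has only a bound, so a fold against it is the bright group's mean against, on each dim array, the higher of that array's background level and the signal. The adjusted p beside such a fold tests the difference between the group means of the signals, not the bound. The script was tested on simulated data. Alternatives were quantile normalization, centring on the array median, a floor at log2 5, a pseudocount of 32, a filter at the 40th percentile, no trend, other choices of probe set, the 4 arrays of a comparison alone, the replicate number as a block, and leaving out each array.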

Additional observations from a re-analysis of the deposited data

Results flagged for a closer look

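Jam2 was noted because its CSA effect differed between the days by a test of the difference itself. The CSA effect was 0.65 at day 6 and -0.25 at day 3, and the difference was 0.90 (SE 0.20, limma adjusted p = 0.0412), with both CSA arrays above both DMSO arrays at day 6 and below them at day 3. The summed signal of the epithelial markers moved the other way, below DMSO in CSA at day 6 and above it at day 3, and its part in the result was not tested.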

How the results depend on the processing

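With each array centred on its median, the day difference of L1td1 in CSA turned to -0.0808. Counts of members past the threshold moved as follows. For CSA at day 6 (5 in the fit reported) they were 0 with no trend, 1 with probe sets averaged, and 2 to 5 when an array was left out. For CSA at day 3 (5) they were 3 with centred arrays, 1 with a floor, 0 with no trend, 3 with probe sets averaged per gene, 3 with the 4 arrays compared alone, and 1 to 5 when an array was left out. For the difference between the CSA effects (1) they were 0 with centred arrays, a floor, no trend or averaged probe sets, and 0 to 1 when an array was left out. For the day course they were 3 in CSA (12) and 12 in DMSO (19) with no trend, and 10 to 14 and 12 to 20 when an array was left out. Where limma called 0 members with no trend, 10, 10 and 4 had an unadjusted p under 0.05 for CSA at day 6, at day 3 and for the difference, and for the difference 8, 5 and 4 had one with centred arrays, a floor and averaged probe sets. Of 41 calls on members above background, 23 stood when any array was left out and 10 under all alternatives. Replicates shared only a number (correlations of their deviations from -0.0034 to 0.0343 over 27022 probe sets), and with the replicate block the counts were 5 for CSA at day 6, 5 at day 3, 1 for the difference, 12 for the day course in CSA and 19 in DMSO, with no call changed. The 95% intervals of members near background are wide, and smaller differences were not detectable there.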
